A study of Mus musculus with 6 samples.

Results

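The simple epithelial keratins described here are Krt7, Krt8, Krt18, Krt19, Krt20 and Krt23, the intermediate filament genes of single-layered epithelia. They were found by gene symbol, through the mouse Ensembl identifiers of the count tables, and all 6 were present among 37991 identifiers. RNA was sequenced from 3 serrated polyps and from 3 samples of surrounding normal distal cecum, with 1 of each from mice 1119, 1192 and 1199. All were HBUS mice, and their tissue was taken after 60 weeks. HBUS mice carry transgenes for US28, a chemokine receptor of viral origin, and HB-EGF, a ligand of the EGF receptor, in the intestinal epithelium, so both tissues carried both transgenes and no animal without them was included. The transgene promoters are not stated in the labels. The question was how keratin transcripts of a polyp compare with those of neighbouring tissue from the same animal.

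Keratins form filaments as obligate pairs of a type I and a type II chain. In the gut lining the type II chain is chiefly Krt8, which pairs with the type I chains Krt18, Krt19 and Krt20, and the filaments anchor to desmosomes and hemidesmosomes and give the cell sheet its mechanical strength. Krt20 is known as a keratin of differentiated surface cells, Krt19 of the crypt more widely, and Krt7, a type II chain, of ducts, urothelium and mesothelium. Krt23 is a type I keratin expressed in some gut and liver conditions. Krt7, Krt8 and Krt18 lie on chromosome 15, where Krt8 and Krt18 are divergent neighbours with 0 protein-coding genes between them, and Krt19, Krt20 and Krt23 lie on chromosome 11 with the other type I genes.

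The stretch before the start that RefSeq annotates is shown for Krt7 and Krt18, the members that rose most in polyps, and for Krt20, which did not pass the test. The sequences are from RefSeq (GRCm38.p6), whose table matched 5 of the 6 members; Krt19 is named only. Windows of 250 bases were read, and the bases at their end that lie in exons of coding transcripts in GENCODE (1 of Krt7 and 36 of Krt18) are left out of the print. The annotations differ for Krt7: its RefSeq start lies 1360 bases inside the GENCODE gene, so its window is upstream of the RefSeq transcript but within that gene, and 161 of its bases lie in exons of GENCODE noncoding transcripts. They are written 5′ to 3′ in the direction of the gene, Krt7 at chr15:101412153-101412401 (plus strand), Krt18 at chr15:102027966-102028179 (plus strand) and Krt20 at chr11:99438154-99438403 (minus strand). Capitals mark matches on either strand to GGGCGG, known from SP factors, to TATAAA, the core promoter box, or to GGAATG, known from TEAD factors.
Krt7: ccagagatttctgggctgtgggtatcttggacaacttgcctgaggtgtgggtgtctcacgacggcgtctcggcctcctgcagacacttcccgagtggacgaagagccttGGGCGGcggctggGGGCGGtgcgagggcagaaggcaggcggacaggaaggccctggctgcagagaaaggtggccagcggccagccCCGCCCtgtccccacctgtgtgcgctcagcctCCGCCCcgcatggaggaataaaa
Krt18: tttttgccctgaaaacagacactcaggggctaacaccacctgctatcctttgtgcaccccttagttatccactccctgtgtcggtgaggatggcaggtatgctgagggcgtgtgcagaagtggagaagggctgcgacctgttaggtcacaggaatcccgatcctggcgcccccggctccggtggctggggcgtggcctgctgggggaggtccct
Krt20: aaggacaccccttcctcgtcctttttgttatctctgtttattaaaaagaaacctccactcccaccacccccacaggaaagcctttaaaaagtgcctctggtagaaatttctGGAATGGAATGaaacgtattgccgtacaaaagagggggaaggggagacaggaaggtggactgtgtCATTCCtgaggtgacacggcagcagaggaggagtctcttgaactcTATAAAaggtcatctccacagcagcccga
The Krt7 promoter held 4 matches to GGGCGG. In any number and at any place in the window, these letters were found in 32.7% of 32851 promoters of this length. That of Krt20 held a TATAAA starting 29 bases before the start and 3 matches to GGAATG, of which a pair overlaps by a single base. Counted in the same way, TATAAA was found in 12.4% of promoters and GGAATG in 12.6%. The shares of promoters with as many matches, or with a match at the same place, were not counted. That of Krt18 held none of these letters. TGANTCA (AP-1, 6.75% of promoters) and TTTATG (CDX, 10.8%) were searched too and matched in none of the 3. These motifs were chosen by hand with the sequences in view, and a match is a run of letters and not a bound site.

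Libraries held 6632645 to 8553952 counts in polyps and 7496143 to 13350119 in surrounding tissue, of which 2 mitochondrial rRNA genes took 46.3% to 62.0% and 57.3% to 75.3%. Levels are in CPM, the usual depth-scaled read count, normalized for library composition by TMM. Fold changes are polyp over surrounding tissue from edgeR's quasi-likelihood test, blocked by mouse, and adjusted p is Benjamini-Hochberg over 10960 genes tested. A gene was called when adjusted p was under 0.05. The polyp library of mouse 1192 had the highest TMM factor (1.43), and the surrounding library of mouse 1199 the lowest (0.593) and the largest rRNA share. All 6 samples were pieces of whole tissue, so more epithelial cells and more keratin RNA per cell cannot be told apart.

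Krt7, Krt18, Krt19 and Krt8 rose in polyps, by 3.73-fold, 2.96-fold, 1.66-fold and 1.63-fold, and Krt20 did not pass the test. Krt23 was too scarce to be tested. The count was thus 4 higher and 0 lower among the 5 members that passed the filter on low counts, against 2.76% of all genes tested called in either direction and 1.72% called higher. The median log2 fold change was 0.73 over the 5 tested members and -0.02 over all genes tested. In the same 4 members every polyp lay above every surrounding sample, which was so for 9.84% of genes tested (every polyp lay below in 8.58%). These genes were chosen with earlier results of the same samples known.

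**Figure D1:**
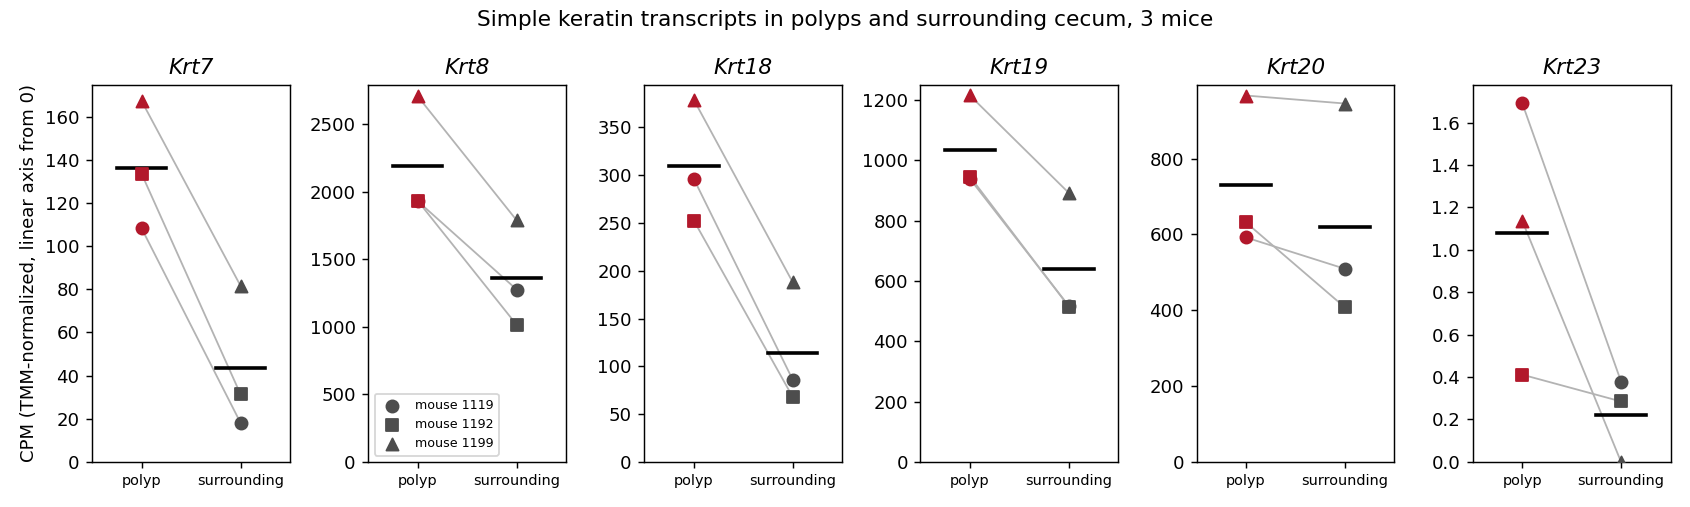
CPM of each simple keratin in the polyp (red, left) and surrounding tissue (grey, right) of each mouse; lines join samples of a mouse, black bars are means of 3 samples, and each axis starts at 0. Polyps lie above all surrounding samples for Krt7, Krt8, Krt18 and Krt19, whereas the groups overlap for Krt20 and Krt23 is near the floor of detection.

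Among the type II chains, Krt8 (ENSMUSG00000049382) was by far the more abundant. It measured 1930.2, 1932 and 2706 CPM in polyps of mice 1119, 1192 and 1199, against 1276, 1014 and 1788 CPM in their surrounding tissue. Every polyp exceeded every surrounding sample, though the polyps of mice 1119 and 1192 were above the surrounding tissue of mouse 1199 by only a small margin. The means were 2189 ± 447 CPM in polyps and 1359 ± 394 CPM in surrounding tissue (SD, n = 3 each), and the log2 fold change was 0.71 ± 0.15 (SE; adjusted p = 0.0467, edgeR). The rise was 0.60, 0.93 and 0.60 on the log2 scale in mice 1119, 1192 and 1199. In the annotation used here, 29.7% of the 50-base stretches of the Krt8 transcript also occur in a pseudogene (Krt8-ps) or in Gm36026, and the counting of reads shared with such copies is not given in the sources used here.

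Krt7 (ENSMUSG00000023039), a type II chain known from ducts and mesothelium, was a minor transcript in every sample and showed the largest fold difference of the 5 tested members. It measured 108, 133 and 167 CPM in polyps of mice 1119, 1192 and 1199, against 18.1, 31.3 and 81.6 CPM in surrounding tissue. The lowest polyp was above the highest surrounding sample, and surrounding samples spread more widely than polyps. The log2 fold change was 1.90 ± 0.28 (SE; 95% interval 1.26 to 2.53; adjusted p = 0.0153, edgeR). Within mice the differences were 2.58, 2.09 and 1.04, so the smallest was in mouse 1199, whose surrounding tissue had the most Krt7.

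Krt18 (ENSMUSG00000023043), the classical type I partner of Krt8, had the smallest p of the 5 tested members. It measured 296, 253 and 379 CPM in polyps of mice 1119, 1192 and 1199, against 85.9, 67.9 and 188 CPM in surrounding tissue. The groups did not overlap, and the differences within mice 1119, 1192 and 1199 were 1.79, 1.90 and 1.01 on the log2 scale. The fitted log2 fold change was 1.57 ± 0.19 (SE; 95% interval 1.13 to 2.00; adjusted p = 0.0102, edgeR).

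Krt19 (ENSMUSG00000020911), the short type I keratin of crypt epithelium, was the most abundant type I chain. It measured 939, 946 and 1215 CPM in polyps, against 517, 515 and 892 CPM in surrounding tissue of mice 1119, 1192 and 1199. The polyps were all higher, and the differences within mice 1119, 1192 and 1199 were 0.86, 0.88 and 0.45 on the log2 scale. The fitted log2 fold change was 0.73 ± 0.15 (SE; 95% interval 0.39 to 1.07; adjusted p = 0.0419, edgeR), close to that of Krt8.

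Krt20 (ENSMUSG00000035775), the keratin of surface cells, measured 592, 631 and 966 CPM in polyps, against 509, 407 and 945 CPM in surrounding tissue of mice 1119, 1192 and 1199. The groups overlapped, since the surrounding tissue of mouse 1199 was above the polyps of the other mice. The log2 fold change was 0.29 ± 0.16 (SE; adjusted p = 0.465, edgeR). Its 95% interval of -0.07 to 0.65 spans 0.956-fold to 1.57-fold and so does not show that Krt20 was the same in both tissues.

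Krt23 (ENSMUSG00000006777) had 14, 5 and 8 counts in polyps, against 4, 4 and 0 counts in surrounding tissue of mice 1119, 1192 and 1199. These are 1.69, 0.411 and 1.14 CPM in polyps, where 3 counts correspond to 0.247 to 0.427 CPM. In surrounding tissue the levels were 0.379, 0.285 and 0 CPM, and the count of 0 in mouse 1199 allows up to 0.676 CPM. The gene was not tested, and these floors cover counting error only.

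**Figure D2:**
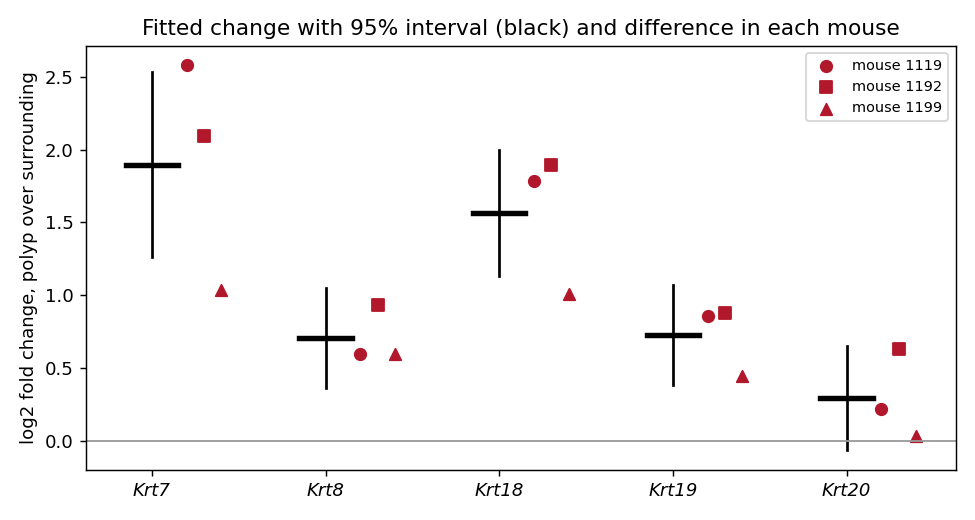
Log2 fold change of the 5 tested keratins, polyp over surrounding tissue: fitted value and 95% interval in black, and the difference in each of 3 mice as red symbols. Krt7 and Krt18 sit at 1.90 and 1.57, Krt8 and Krt19 at 0.71 and 0.73, and the interval of Krt20 includes 0; mouse 1199 gives the smallest difference for Krt7, Krt18, Krt19 and Krt20.

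The limits on these calls fell unevenly on the members. None of the 4 passed when the pairing by mouse was ignored (adjusted p = 0.131 to 0.290, edgeR), and Krt8 and Krt19 lost their calls when any 1 of the 3 mice was left out. Krt7 lost its call without mouse 1192 (adjusted p = 0.0875) and Krt18 kept its call without each mouse in turn (adjusted p = 0.0122 to 0.0362). Krt8 also missed the threshold with RLE normalization (adjusted p = 0.0522), and Krt8 and Krt19 with upper-quartile normalization (0.0688 and 0.0644) and without robust spread estimates (0.0712 and 0.0655). DESeq2 and limma-voom, both with the mouse as a block, called the same 4 members.

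Set per length of the longest coding transcript, Krt8 led in every sample and Krt7 and Krt23 came last. In polyps Krt8 stood at 986 to 1382 CPM per kilobase, against 518 to 913 in surrounding tissue. Krt19 followed with 596 to 771 CPM per kilobase in polyps, against 327 to 566 in surrounding tissue. Krt20 had 307 to 501 CPM per kilobase in polyps, against 211 to 490.5 in surrounding tissue, and Krt18 had 176 to 264 in polyps, against 47.2 to 131 in surrounding tissue. The order Krt8, Krt19, Krt20, Krt18, Krt7, Krt23 was the same in all 6 libraries, although in surrounding tissue the range of Krt19 overlaps those of Krt8 and of Krt20. Krt7 lay at percentiles 92.9 to 95.2 of 10723 genes ranked per length in polyps and 60.3 to 89.8 in surrounding tissue, while Krt8 lay at percentiles 99.7 to 99.9 in all 6 libraries.

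Shares of the summed keratin level were compared as a description, with no test. The share of Krt18 in the summed keratin level per kilobase was 8.28% to 9.71% in polyps, against 4.25% to 6.17% in surrounding tissue. The share of Krt7 was 1.25% to 1.54% in polyps, against 0.338% to 0.940% in surrounding tissue. Krt20 took 14.5% to 16.9% in polyps, against 19.0% to 23.1% in surrounding tissue. For these 3 genes the tissues did not overlap, with Krt18 and Krt7 taking more and Krt20 less of the pool in polyps. The large components overlapped, Krt8 at 46.5% to 46.7% in polyps against 43.1% to 49.8% in surrounding tissue, and Krt19 at 26.1% to 28.3% in polyps against 25.1% to 29.4%. Shares depend on the transcript lengths used, which matters most for Krt7, whose annotated coding transcript of 4094 bases is the longest of the 6.

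**Figure D3:**
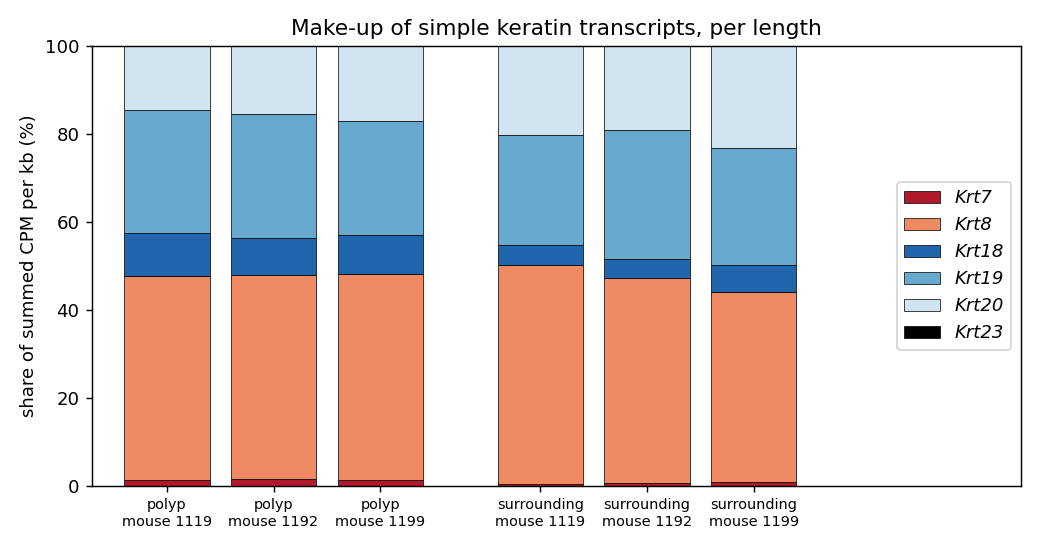
Share of each keratin, in percent, in the summed CPM per kilobase of the 6 simple keratins, with polyps on the left and surrounding tissue on the right (1 bar per library). Krt18 takes 8.28% to 9.71% in polyps against 4.25% to 6.17% in surrounding tissue, and Krt20 takes 14.5% to 16.9% against 19.0% to 23.1%; Krt23 is too small to see.

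Ratios of counts within a library do not depend on how libraries are scaled. There were 0.0561, 0.0691 and 0.0618 Krt7 counts for each Krt8 count in polyps of mice 1119, 1192 and 1199, against 0.0142, 0.0309 and 0.0456 in surrounding tissue. The log2 ratio of Krt7 to Krt8 averaged -4.01 ± 0.15 in polyps and -5.20 ± 0.86 in surrounding tissue (SD, n = 3 each), a mean difference of 1.19 that was positive in 3 of 3 mice (1.98, 1.16 and 0.44). Polyps were thus alike in this ratio, and most of the spread came from the surrounding tissue. For Krt18 and Krt8, a pairing chosen after the values were seen, the ratio of counts was 0.153, 0.131 and 0.140 in polyps of mice 1119, 1192 and 1199, against 0.0673, 0.0669 and 0.105 in surrounding tissue. The mean log2 difference was 0.86 ± 0.40 (SD, n = 3 mice). The ratio of Krt20 to Krt19 ran the other way, at 0.630, 0.667 and 0.795 in polyps, against 0.985, 0.791 and 1.06 in surrounding tissue of mice 1119, 1192 and 1199. It was lower in the polyp of 3 of 3 mice, with a mean log2 difference of -0.43 ± 0.20 (SD, n = 3 mice), though the polyp of mouse 1199 had a higher ratio than the surrounding tissue of mouse 1192. For each of these 3 ratios the exact two-sided permutation test over mice (sign flips) gave p = 0.25, the smallest value that 3 mice allow. Summed type I counts (Krt18, Krt19, Krt20 and Krt23) over summed type II counts (Krt7 and Krt8) gave 0.897, 0.886 and 0.892 in polyps, against 0.860, 0.947 and 1.08 in surrounding tissue. This ratio did not move one way, with log2 differences of 0.06, -0.10 and -0.28 (exact permutation p = 0.5, n = 3 mice).

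**Figure D4:**
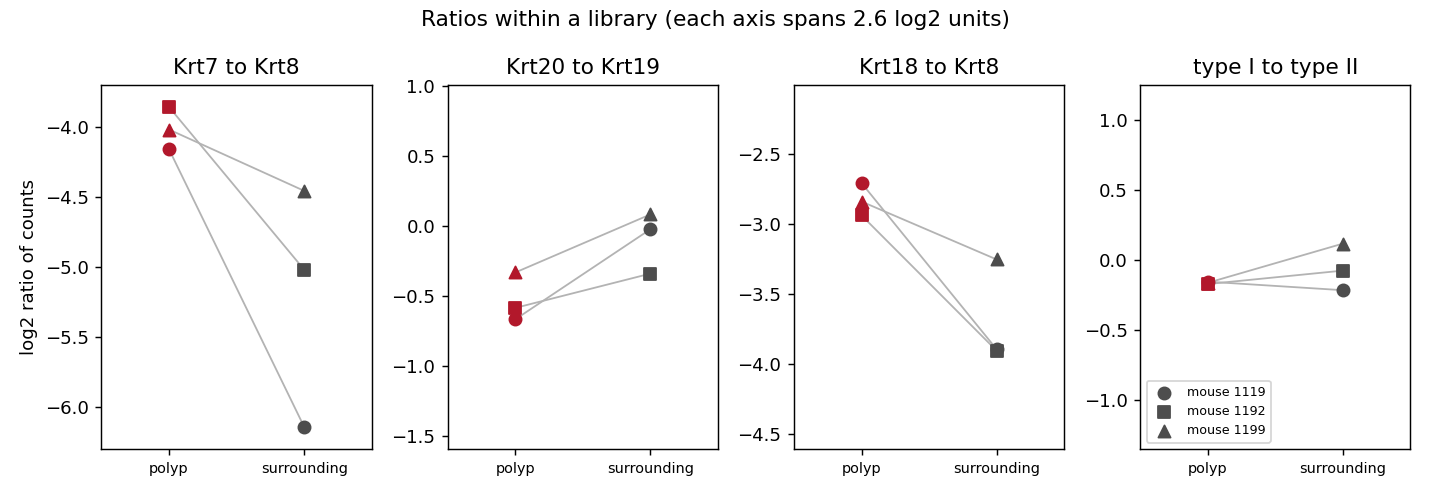
Log2 ratio of counts within a library for Krt7 to Krt8, Krt20 to Krt19, Krt18 to Krt8 and summed type I to type II chains, with polyps (red) left of surrounding tissue (grey) and lines joining samples of a mouse. Ratios of Krt7 to Krt8 and Krt18 to Krt8 are higher in the polyp of each mouse, Krt20 to Krt19 is lower, and type I to type II has no common direction; each axis spans the same range.

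Markers of the tissue's cell types were read beside the keratins. The 15 general epithelial genes, among them the adhesion genes Epcam and Cdh1 and the transcription factor genes Cdx1 and Cdx2, summed to 3895 to 4536 CPM in polyps and 3001 to 4237 CPM in surrounding tissue. Of these 15, 0 were called by edgeR (3 at an unadjusted p under 0.05, and 1 by DESeq2 and 1 by limma-voom), and their median log2 fold change was 0.05. Cdh1 was at 0.64 ± 0.16, Cdx1 at -0.59 ± 0.18, Epcam at 0.41 ± 0.15 and Cdx2 at -0.29 ± 0.16 (log2 fold change ± SE; adjusted p = 0.0867 to 0.472, edgeR). When libraries were scaled to the summed counts of these 15 genes in place of TMM, a setting chosen after seeing the data, the median over all genes moved by -0.23. Under it Krt7 and Krt18 still rose, by 1.67 and 1.34 on the log2 scale (adjusted p = 0.0170 and 0.0105, edgeR). Krt8 and Krt19 did not pass under it (0.48 and 0.50; adjusted p = 0.0913 and 0.0929), and Krt20 was at 0.07. Over all genes, 300 were called under it (111 higher and 189 lower), against 303 with TMM (189 higher and 114 lower), and 222 of the 303 were shared.

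Krt7, Krt8, Krt18 and Krt19 are also made by mesothelium, the covering of the cecal surface. The 7 mesothelial genes summed to 13.2 to 14.5 CPM in polyps and 9.69 to 17.9 CPM in surrounding tissue, and 0 of the 4 tested were called by edgeR, DESeq2 or limma-voom (0 at an unadjusted p under 0.05). Of them, Bnc1 had 0 counts in all 3 polyps, against 5, 1 and 0 counts in surrounding tissue of mice 1119, 1192 and 1199. Upk3b had 0, 26 and 0 counts in polyps, against 20, 17 and 2 in surrounding tissue of the same mice, and Upk1b had 11, 0 and 15 counts in polyps, against 31, 31 and 3 in surrounding tissue. Cldn15 had 62, 121 and 33 counts in polyps, against 86, 143 and 28 in surrounding tissue. It was the most abundant of the list in every library except the polyp of mouse 1199. The mesothelial sum is thus weighted towards Cldn15, and whether Cldn15 marks mesothelium in this tissue was not tested. Msln (mesothelin) measured 3.51, 2.39 and 6.40 CPM in polyps, against 1.80, 1.64 and 1.80 CPM in surrounding tissue of mice 1119, 1192 and 1199, and did not pass the test (adjusted p = 0.491, edgeR). Urothelial genes, 3 in all, summed to 0.822 to 2.42 CPM in polyps and 0.427 to 2.37 CPM in surrounding tissue, with Upk2 at 0 counts throughout and Upk1a, the tested gene, at a log2 fold change of 0.19 ± 0.98 (SE; adjusted p = 0.953, edgeR). The 6 fibroblast genes summed to 205 to 526 CPM in polyps and 61.5 to 142 CPM in surrounding tissue. Of them 4 rose, against 1.72% of all genes tested called higher. The 7 smooth muscle genes summed to 16.3 to 79.6 CPM in polyps and 180.4 to 211 CPM in surrounding tissue. Of them 2 fell, against 1.04% of all genes tested called lower. The part of these shifts in the keratin differences was not tested. No gene was called among tested crypt base and proliferation genes (4), endothelial genes (4) or leukocyte genes (3) by edgeR, DESeq2 or limma-voom, with 1 lower, 2 higher and 0 at an unadjusted p under 0.05. Median log2 fold changes of these lists were -1.08, 0.98 and -0.41. All 4 tested crypt base and proliferation genes were negative, and all 4 endothelial genes were positive. Of all 10960 genes tested, 5650 were negative and 5310 positive, so 1 shared sign in so short a list says little. Among 5 goblet cell genes 2 fell, against the same 1.04% of all genes tested.

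Genes of the surface colonocyte, the cell in which Krt20 is typically found, were read beside it. Of 11 tested, 5 fell in polyps and 0 rose, against 1.04% of all genes tested called lower. The median log2 fold change was -1.05. All 11 were negative, though by uneven amounts, against 5650 of all 10960 genes tested. Car1 and Ceacam1, the most abundant of the list, were at -0.33 and -0.05. Muc3 and Ceacam20 were at -0.15 and -0.06, and none of these genes passed (adjusted p = 0.573 to 0.917, edgeR). The anion exchanger gene Slc26a3 fell by 2.24 ± 0.22 and the magnesium channel gene Trpm6 by 1.90 ± 0.22 on the log2 scale (adjusted p = 0.00523 and 0.00827, edgeR). The steroid dehydrogenase gene Hsd3b3 fell by 1.25 ± 0.16 and the water channel gene Aqp8 by 1.38 ± 0.18 (adjusted p = 0.0113 and 0.0116, edgeR), and the fifth was the carbonic anhydrase gene Car4. Krt20, at 0.29 ± 0.16, stood beside these with a positive sign in 3 of 3 mice, and a difference between Krt20 and this list was not tested. Without mouse 1199, 2 of the 5 were called, and with the pairing ignored 3 of the 5 were.

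The other keratins had few counts. Of 48 further keratin genes in the files, 26 had 0 counts in all 6 libraries, and the 48 together summed to 3.54 to 11.4 CPM in polyps and 3.13 to 7.44 CPM in surrounding tissue. The 6 simple keratins summed to 3867 to 5434 CPM in polyps and 2036 to 3895 CPM in surrounding tissue. Among the other keratins, 2 passed the filter on low counts and 0 were called by edgeR, DESeq2 or limma-voom, with 1 at an unadjusted p under 0.05. Krt14, the type I keratin of basal squamous cells, had 22, 30 and 18 counts in polyps, against 1, 1 and 4 in surrounding tissue of mice 1119, 1192 and 1199 (adjusted p = 0.212, edgeR). Its type II partner Krt5 had 0 counts in every library. Krt222, a keratin-like gene, measured 0.725, 0.493 and 1.28 CPM in polyps, against 2.08, 2.07 and 2.03 CPM in surrounding tissue of mice 1119, 1192 and 1199 (adjusted p = 0.573, edgeR). Krt80, named after its values were seen, had 23, 1 and 22 counts in polyps, against 1, 0 and 3 in surrounding tissue of mice 1119, 1192 and 1199, and was not tested. The 8 squamous genes, which include Krt14 and Krt5, summed to 3.84 to 4.52 CPM in polyps and 1.14 to 2.93 CPM in surrounding tissue.

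A list of keratin partners, most of them proteins that bind or anchor keratin filaments, was read next. The 27 tested genes are chiefly those of plakins, desmosome and hemidesmosome proteins and keratin-binding regulators. They include Krtcap2 and Krtcap3, which are named for keratinocytes and not for binding keratin. Both were positive (0.76 and 0.54 on the log2 scale) and neither was called. Of the 27, 3 rose and 0 fell, which is 11.1% called against 2.76% of all genes tested. The median log2 fold change was 0.41, and 24 of 27 were positive, against 5310 of all 10960 genes tested. DESeq2 and limma-voom each called 6 of the 27 higher, where over all genes they called 326 and 299 higher. Itga6, an integrin chain of hemidesmosomes, measured 530.4, 364 and 493 CPM in polyps, against 185, 150.1 and 279 CPM in surrounding tissue of mice 1119, 1192 and 1199. The groups did not overlap, and the log2 fold change was 1.21 ± 0.17 (SE; adjusted p = 0.0121, edgeR). Its partner chain Itgb4 measured 207, 202 and 219.7 CPM in polyps, against 136, 75.6 and 147 CPM in surrounding tissue, and just missed the threshold (0.87 ± 0.19; adjusted p = 0.0509, edgeR).

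Trim29, a tripartite motif protein linked to keratin organisation in human keratinocytes, measured 24.9, 20.9 and 31.0 CPM in polyps, against 4.74, 0.854 and 9.47 CPM in surrounding tissue of mice 1119, 1192 and 1199. Every polyp was above every surrounding sample, with a log2 fold change of 2.76 ± 0.50 (SE; adjusted p = 0.0304, edgeR). Sfn, the sigma member of the 14-3-3 family, which binds phosphorylated keratins, measured 58.2, 62.7 and 109 CPM in polyps, against 28.2, 33.3 and 78.7 CPM in surrounding tissue in the same mouse order. These groups overlapped because mouse 1199 was high in both tissues, yet the polyp was higher in each mouse (0.81 ± 0.17; adjusted p = 0.0443, edgeR). The desmosomal plaque gene Pkp2 was at 0.72 ± 0.16 and the cytolinker gene Plec at 0.50 ± 0.14 on the log2 scale without passing (adjusted p = 0.0517 and 0.107, edgeR). Nor did Ywhag (0.62 ± 0.17), Pkp4 (0.59 ± 0.17) or Pnn (-1.02 ± 0.34; adjusted p = 0.117, 0.139 and 0.184, edgeR). With a mouse left out, the called partners were 1 (mouse 1119), 2 (mouse 1192) and 1 (mouse 1199), and ignoring the pairing left 0 (edgeR).

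Among 8 other intermediate filament genes tested, 2 rose and 0 fell, which is 25% called against 2.76% of all genes tested. Lmna, the A-type nuclear lamin gene, measured 69.0, 91.2 and 122 CPM in polyps, against 43.2, 44.6 and 80.9 CPM in surrounding tissue of mice 1119, 1192 and 1199 (log2 fold change 0.77 ± 0.16, SE; adjusted p = 0.0392, edgeR). Bfsp1, known as a beaded filament gene of the eye lens, measured 5.92, 6.42 and 4.98 CPM in polyps, against 0.379, 0.570 and 0.902 CPM in surrounding tissue of the same mice (3.30 ± 0.64; adjusted p = 0.0344, edgeR). Vim, the filament gene of fibroblasts and other mesenchymal cells, was at 1.17 ± 0.28 and Nes at 1.96 ± 0.68 without passing (adjusted p = 0.0719 and 0.211, edgeR). With all mice, 4 of the 8 were higher and 2 lower at an unadjusted p under 0.05 (edgeR). Of all 10960 genes tested, 1596 reached that p in either direction. The 2 lower genes were Des and Synm, at -1.93 ± 0.74 and -1.51 ± 0.58 (log2 fold change ± SE; adjusted p = 0.324 and 0.276, edgeR). DESeq2 and limma-voom each called 2 of the 8 higher and 0 lower. In edgeR without mouse 1119, and likewise without mouse 1199, 0 of the 8 were called. Without mouse 1192, 2 were called, 1 higher and 1 lower, and 1 of these was called with all mice. Ignoring the pairing left 1.

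**Figure D5:**
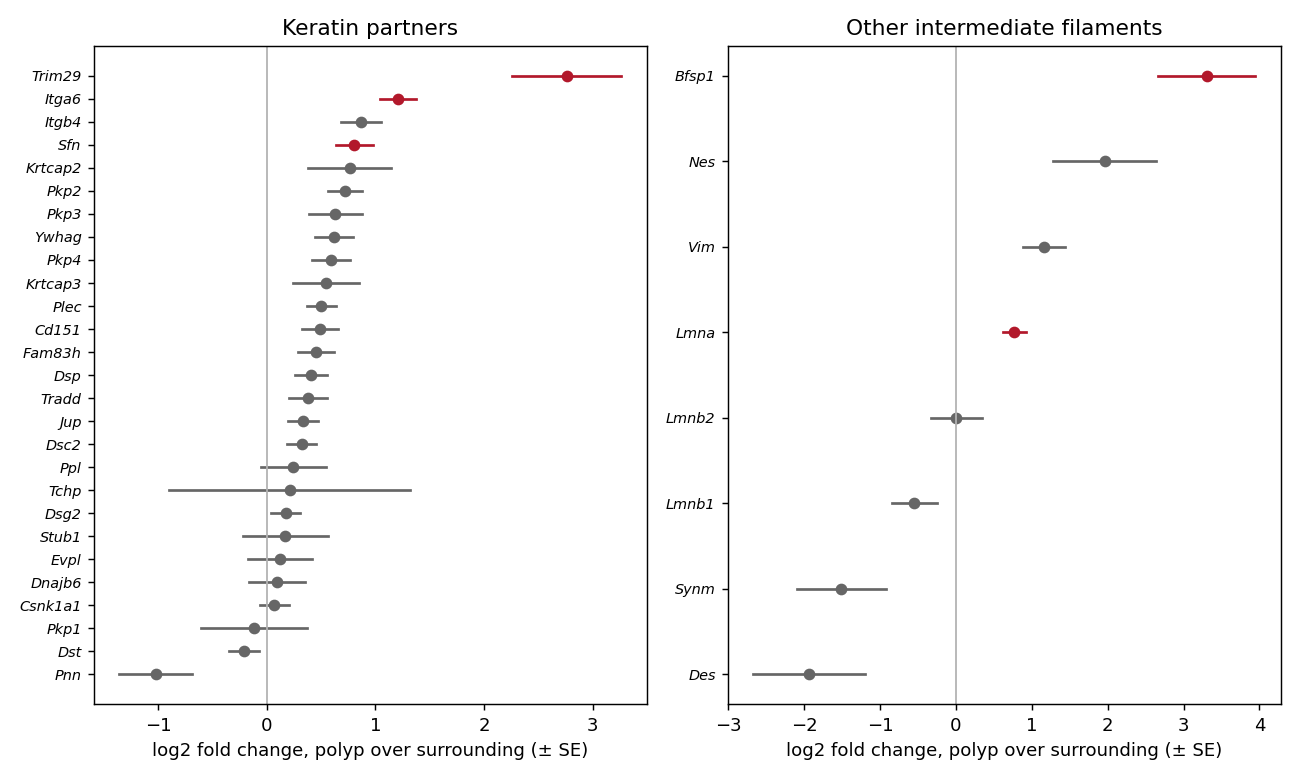
Log2 fold change, polyp over surrounding tissue, with its SE for 27 keratin partners (left) and 8 other intermediate filament genes (right); red marks genes called by edgeR. Of the partners 24 lie right of 0, and the called genes are Trim29, Itga6 and Sfn on the left and Bfsp1 and Lmna on the right.

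Across the 6 libraries, log2 CPM of Krt7, Krt8, Krt18 and Krt19 moved together, with Pearson r from 0.889 to 0.980 between pairs of these, and Krt20 followed them less closely (r = 0.698 to 0.842). These points share libraries, their scaling and both tissue groups, so r is a description. Among 5616 named genes of at least moderate abundance, Krt7 was most like Iqgap1, a cytoskeletal scaffold gene (r = 0.996), and Spg20 (r = 0.993). Krt8 was most like the transcription factor gene Ets2 (r = 0.996) and the microtubule protein gene Map4 (r = 0.995). Krt18 was most like Dgat2, a triglyceride synthesis enzyme gene (r = 0.999), and the collagen VI chain gene Col6a4 (r = 0.998). Krt19 was most like Errfi1, a feedback inhibitor of the EGF receptor (r = 0.993), and Fos, an AP-1 subunit (r = 0.991). Krt20 was most like Lypla1 (r = 0.996) and Arrdc4 (r = 0.994), neither of which was called. Of the 10 genes, 4 were called higher by edgeR (Dgat2, Col6a4, Errfi1 and Fos), with log2 fold changes of 0.98, 1.42, 0.94 and 0.95. None was called lower, and 1.72% of all genes tested were called higher. These genes were picked for their likeness to keratins in the same 6 libraries, so their direction follows from the choice and is no separate result.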

How the data were processed

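The authors deposited 1 table of raw read counts per gene and sample, with Ensembl mouse identifiers and no normalization; of 37991 identifiers, 32919 were named through the gene tables used here. The submitters' processing notes name TopHat2 2.0.7, Bowtie 0.12.9 and HTSeq 0.5.3p9; genome build: not given in the sources used here, nor the annotation or the use of strand in counting. Per the labels' protocols, mammalian RNA was depleted with a kit meant to enrich microbial RNA, and rRNA was removed, before libraries were made. This could change transcript levels, and its part was not tested.

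Counts of all 6 samples entered edgeR 4.0.16 (R 4.3.3): filterByExpr by tissue with a minimum count of 10, TMM, and the robust quasi-likelihood test with mouse as a block, Benjamini-Hochberg over 10960 genes, called under 0.05. DESeq2 1.42.0 and limma-voom (limma 3.58.1) were alternatives, as were the alternatives in the closing section. The fit had 2 residual degrees of freedom. Both samples of a number come from 1 mouse per the labels; deviations of same-numbered samples from their group means correlated at 0.0719, 0.127 and 0.159. Log2 CPM used a prior count of 2 for correlations. Ratios were taken from the raw counts, and adding 0.5 to each count was an alternative. Replicates are separate mice. Summaries and figures were made in Python 3.11.15, and the fit was tested on simulated data.

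The members, gene lists and motifs were chosen with earlier results of these data known. Named are all members, other keratins that passed the filter, all called keratin partners with up to 6 others by smallest p, up to 4 genes by smallest p of other lists, and the 2 genes most correlated with each tested member among 5616 with a mean log2 CPM of at least 3. Outside that rule, and chosen after their values were seen, are Krt80, Car4 (the fifth called surface colonocyte gene), Car1, Ceacam1, Ceacam20, Muc3, Krtcap2, Krtcap3, Des and Synm. So are Bnc1, Upk2 and Krt5, taken from the marker genes at 0 counts in all polyps. Ascl2 (crypt base) and Cd79a (leukocyte) were also at 0 counts in all polyps and are not described above.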

Additional observations from a re-analysis of the deposited data

How the results depend on the processing

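Log2 fold changes of Krt7, Krt8, Krt18, Krt19 and Krt20 and the 4 ratios kept their sign under the alternatives run. Over all genes the balance of calls turned with scaling to epithelial counts, to 111 higher and 189 lower, against 189 higher and 114 lower with TMM. With mouse ignored (no replicate block), 87 genes were called in place of 303 and 0 simple keratins in place of 4; log2 fold changes were 1.67 (Krt7), 0.69 (Krt8), 1.45 (Krt18) and 0.69 (Krt19), none past the threshold. Genes called were 753 with no filter on low counts, 541 with DESeq2 and 487 with limma-voom, each with 4 simple keratins. Simple keratins called were 2 with upper-quartile normalization (Krt8 0.67 and Krt19 0.69 missed), 2 without robust spread (Krt8 0.71 and Krt19 0.73 missed) and 2 with scaling to epithelial counts, chosen after seeing the data (Krt8 0.48 and Krt19 0.50 missed); with RLE only Krt8 missed (0.70). Leaving out each mouse in turn gave 83 to 281 genes and 1 to 2 simple keratins called, with log2 fold changes of 1.56 to 2.31 for Krt7, 0.56 to 0.76 for Krt8, 1.36 to 1.82 for Krt18, 0.61 to 0.85 for Krt19 and 0.08 to 0.41 for Krt20. Fewer samples were fitted with a mouse left out, and the cause of the lost calls was not tested. Mean log2 ratio differences were 0.80 to 1.57 for Krt7 to Krt8, -0.53 to -0.33 for Krt20 to Krt19, 0.69 to 1.08 for Krt18 to Krt8 and -0.19 to -0.02 for type I to type II. Depth limits Krt23, which had at most 14 counts in a library.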
